A study of Mus musculus with 15 samples.

Results

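The comparison is between the cortex of 5 mice that received 1 session of intermittent theta-burst stimulation (iTBS) and the cortex of 5 mice that received sham stimulation. All were wild-type C57BL/6J animals, and tissue was taken 3 h after the session. The members are the 10 libraries labelled iTBS or sham, of 15 in the series, and the 22338 genes with enough counts in them, of 56748 in the deposited count table. The 5 libraries of a second protocol did not enter the contrast. The dissected area is somatosensory cortex by the titles and sensorimotor cortex by the design text, and it is called cortex here. The labels state no age or sex of the animals and do not describe the sham procedure. Libraries were made from total RNA after removal of ribosomal RNA, so they hold nuclear and unspliced transcripts as well as mature messenger RNA.

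Repetitive transcranial magnetic stimulation passes brief magnetic pulses through the scalp and induces electric currents in the cortex beneath the coil. Theta-burst protocols group the pulses into short high-frequency bursts that repeat at the rhythm of hippocampal theta waves. The intermittent form, with pauses between trains of bursts, is known for raising the excitability of the human motor cortex after the session, in a way that depends on NMDA-type glutamate receptors. Neuronal activity of this kind is known to induce immediate early genes such as Fos, Arc, Egr1 and Npas4 within minutes. A later set of effector genes, among them Bdnf and Homer1, follows over the next hours. Glucocorticoids, the adrenal hormones released in stress and with the time of day, drive a further set of genes in neurons, glia and vessels through the glucocorticoid receptor.

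No gene passed the test for a difference between iTBS and sham cortex once p-values were adjusted for the number of genes tested. Of 22338 genes, 0 (0%) had an adjusted p under 0.05 in edgeR's quasi-likelihood test with Benjamini-Hochberg adjustment, and the smallest adjusted p was 1.00. At an unadjusted p under 0.05 there were 182 genes with a higher value in iTBS (0.815% of those tested) and 132 with a lower value (0.591%), whereas a threshold of 0.05 lets 5% through on average where no gene differs. DESeq2, run without that filter on low counts, also gave 0 genes after adjustment, and 377 of 44029 genes at an unadjusted p under 0.05. In 60 genes (0.269%) every iTBS library lay above every sham library, and in 30 genes (0.134%) every iTBS library lay below. The named differences below are therefore descriptions of single genes, none of which passed the test over all genes. They were picked for their small p among 22338 genes, so their size in these libraries tends to overstate any true difference.

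The 95% confidence interval of the fold change lay inside a 2-fold change in either direction for 17754 of the 22338 genes (79.5%). Among the 9969 genes with a mean of at least 10 CPM (counts scaled to a common library size), it did so for 9907 (99.4%), and it lay inside a 1.5-fold change for 9705 (97.4%). Over all tested genes it lay inside a 1.5-fold change for 13332 (59.7%). The biological coefficient of variation, the spread between libraries of a group beyond counting error, was 20.9%. It holds differences of dissection and library preparation as well as those between animals.

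**Figure D1:**
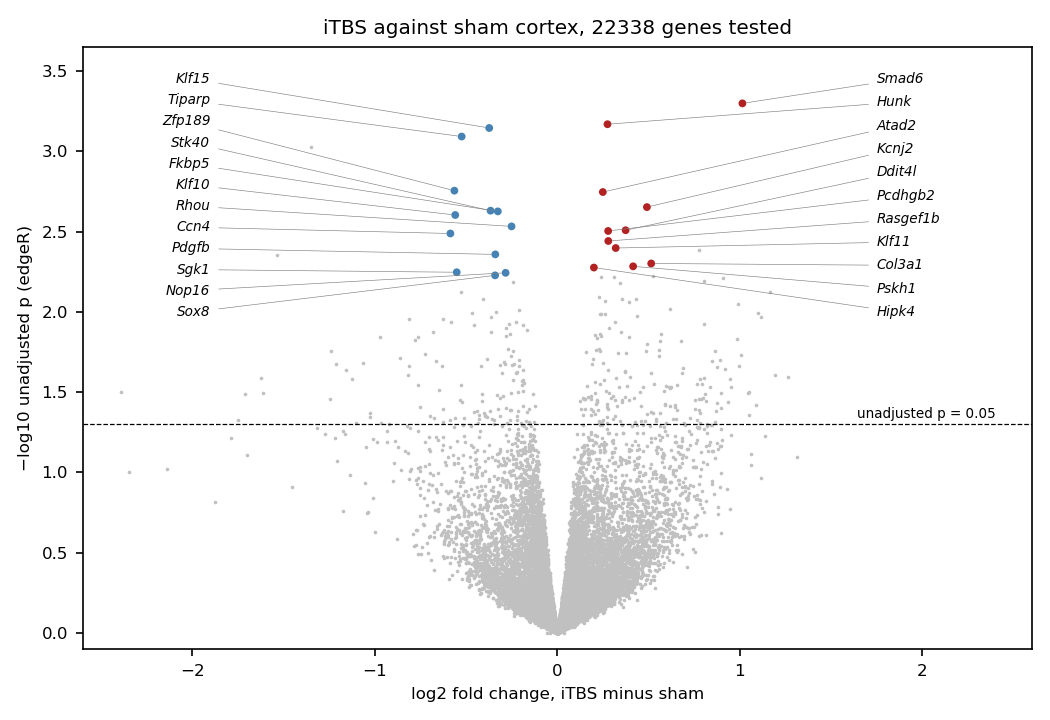
Each of the 22338 tested genes is a point, with its log2 fold change (iTBS minus sham) on the x axis and the −log10 of its unadjusted edgeR p on the y axis. The 11 named genes with a higher value (red) and the 12 with a lower value (blue) lie at the top, all at an adjusted p of 1.00; unnamed points among them are genes under 1 CPM, without a gene symbol of the usual form or not reported, and the dashed line marks an unadjusted p of 0.05.

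Total counts ran from 15385070 (iTBS library 3) to 47807723 (sham library 4) and did not separate the groups (mean ± SD 29745100 ± 8461780 in iTBS and 29887800 ± 10966400 in sham, two-sided exact permutation p = 1, smallest possible 0.00794). The excitatory cortical markers Slc17a7, Neurod6 and Tbr1 were expressed in every library, with Slc17a7 at 991 to 1343 CPM in iTBS and 867 to 1475 CPM in sham. Several libraries stood apart for reasons that the labels do not give. Of the 16 choroid plexus and ependyma genes listed, 14 were tested. The summed level of all 16 was 638 CPM in sham library 2 and 649 CPM in sham library 5. It was 224 to 369 CPM in the iTBS libraries. Where 5 values of a gene are given for a group, they are in the order of its libraries 1 to 5. Ttr, the transthyretin gene that defines choroid plexus epithelium, measured 23.5, 3.64, 0.765, 3.58 and 65.5 CPM in iTBS and 10.4, 236, 2.34, 1.48 and 251.5 CPM in sham. Sham library 2 also had the highest summed level of the 13 thalamic genes listed (684 CPM, against 288 to 340.3 CPM in the other 9 libraries).

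The striatal projection neuron genes (17 tested) summed to 1090 to 2601 CPM in iTBS and 795 to 2203 CPM in sham libraries, with iTBS library 2 the highest. Drd1, the dopamine receptor of the direct striatal pathway, measured 33.7, 72.03, 27.1, 24.4 and 41.9 CPM in iTBS and 52.4, 67.4, 16.2, 20.9 and 24.9 CPM in sham. Nuclear-retained RNAs (11 genes, led by Malat1) summed to 6368 to 16070 CPM in iTBS and 4040 to 16670 CPM in sham, with sham library 4 the lowest. The groups overlapped in striatal and nuclear RNA level. In bulk tissue, fewer cells of a type and less RNA per cell cannot be told apart.

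**Figure D2:**
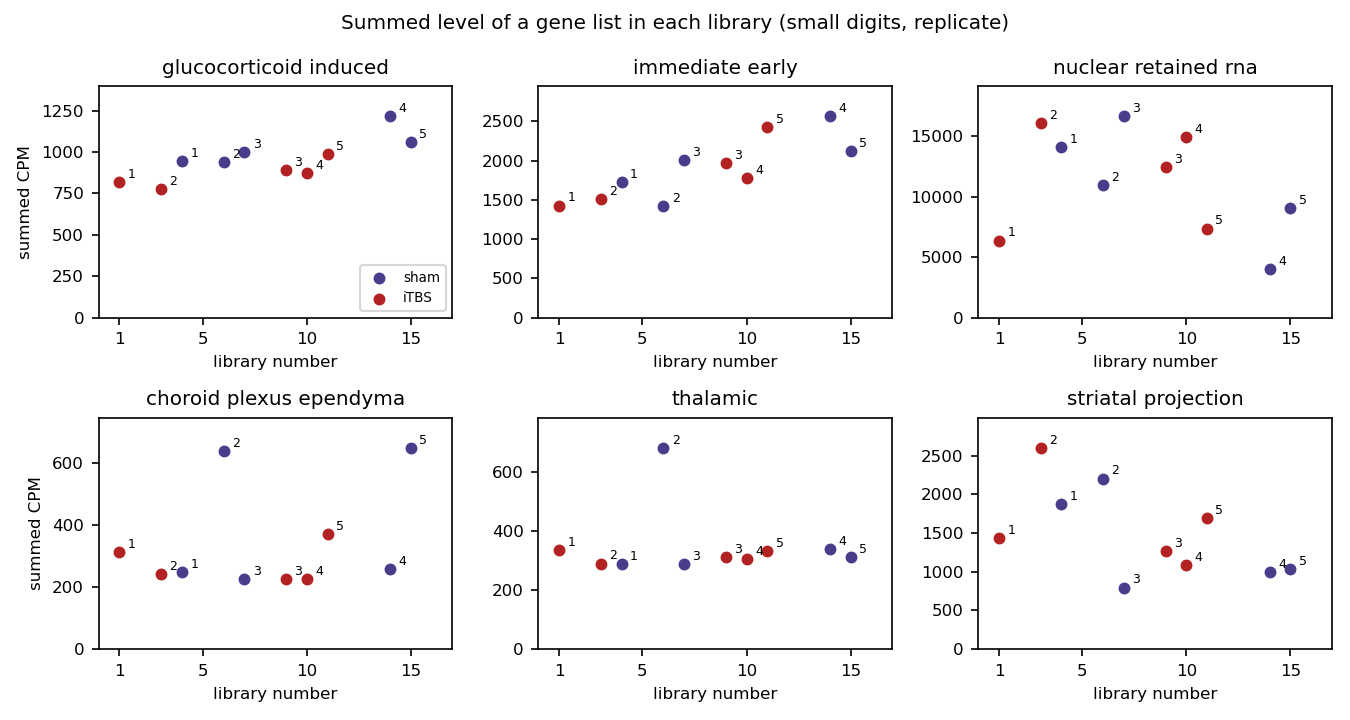
Summed CPM of 6 gene lists (y axis, from 0) in the 10 libraries, ordered on the x axis by the library number in the labels, with iTBS in red, sham in dark blue and the replicate as a small digit. Sham libraries 2 and 5 stand above the others for choroid plexus genes, sham library 2 for thalamic genes, and the glucocorticoid-induced list is lowest in iTBS libraries 1 and 2.

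Among the 12 higher genes, 11 of which are reported, the largest difference and the smallest p belonged to Smad6, an inhibitory SMAD that BMP signalling induces and that damps the same pathway. Smad6 measured 1.96, 1.49, 1.53, 1.49 and 1.83 CPM in iTBS and 0.568, 0.742, 0.882, 0.862 and 1.05 CPM in sham, so that the lowest iTBS library was above the highest sham library. Its log2 fold change was 1.01 ± 0.22 (SE), with a 95% interval of 0.54 to 1.49 and an unadjusted p of 0.000502 in edgeR (adjusted p = 1.00). Smad6 is a low-count gene in these libraries, and on the deposited variance-stabilized scale, which shrinks low counts, its difference was 0.27. Its mean was 0.82 CPM in sham, under the floor of 1 CPM for named genes, and 1.66 CPM in iTBS. It passed that floor, taken over both groups, only through its iTBS values. Klf11, a TGF-beta-inducible Krüppel-like repressor, measured 9.36, 9.71, 8.61, 9.80 and 8.74 CPM in iTBS and 7.88, 7.30, 7.37, 7.94 and 6.54 CPM in sham, again without overlap, at 0.32 ± 0.091 on the log2 scale.

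Hunk, an AMPK-related protein kinase, measured 33.6, 33.1, 31.7, 36.01 and 30.3 CPM in iTBS and 25.8, 26.8, 28.6, 27.6 and 27.5 CPM in sham. The groups did not overlap, and the spread within each was narrow, so that a log2 fold change of only 0.28 ± 0.061 gave the second smallest p of the higher genes. Atad2, a bromodomain ATPase that binds acetylated histones, measured 18.3, 20.1, 18.4, 19.4 and 18.04 CPM in iTBS and 16.01, 15.2, 16.5, 15.2 and 16.4 CPM in sham, also without overlap (0.25 ± 0.063). Kcnj2 encodes the inward-rectifier potassium channel Kir2.1, which helps to set the resting potential. It measured 49.5, 48.9, 37.03, 34.5 and 36.7 CPM in iTBS and 30.6, 35.9, 25.6, 30.1 and 24.8 CPM in sham. Here iTBS libraries 1 and 2 were the highest of the 10, and iTBS library 4 lay below sham library 2, so the groups overlapped; the log2 fold change was 0.49 ± 0.13.

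Ddit4l, an inhibitor of mTORC1 signalling, measured 38.5, 27.1, 34.6, 34.1 and 32.1 CPM in iTBS and 25.8, 22.4, 25.1, 30.7 and 24.2 CPM in sham (0.37 ± 0.10 on the log2 scale), and iTBS library 2 lay inside the sham range. Pcdhgb2, a clustered protocadherin of the neuronal cell surface, measured 12.8 ± 0.410 CPM in iTBS and 10.5 ± 0.762 CPM in sham libraries (mean ± SD, n = 5 each) without overlap. Genes of its cluster share their last exons, and the labels do not say how reads were split between them. The other higher genes reported were Rasgef1b, an exchange factor for small GTPases (0.28 on the log2 scale), the fibrillar collagen gene Col3a1 (0.51), and the kinase genes Pskh1 (0.42, no overlap) and Hipk4 (0.20, no overlap). Hipk4 measured 114, 117, 112, 111 and 113 CPM in iTBS and 108, 97.7, 91.7, 103 and 93.6 CPM in sham.

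Among the 12 lower genes, Klf15 had the smallest p. Klf15 is a Krüppel-like factor that glucocorticoids induce directly and that also follows the daily rhythm. It measured 14.5, 14.2, 16.3, 16.5 and 16.9 CPM in iTBS and 17.5, 19.3, 21.5, 22.1 and 20.9 CPM in sham, so every iTBS library lay below every sham library, and its log2 fold change was -0.37 ± 0.084 (unadjusted p of 0.000715 in edgeR, adjusted p = 1.00). Fkbp5, which encodes a co-chaperone that lowers the hormone affinity of the glucocorticoid receptor and is itself induced by it, measured 22.9, 23.2, 21.7, 21.2 and 25.2 CPM in iTBS and 26.2, 28.2, 24.7, 30.8 and 33.1 CPM in sham. Only iTBS library 5 reached into the sham range, at a log2 fold change of -0.33 ± 0.086. Sgk1, the serum- and glucocorticoid-regulated kinase, measured 49.4, 65.1, 67.3, 73.95 and 94.1 CPM in iTBS and 102, 118, 89.3, 125 and 77.5 CPM in sham (-0.55 ± 0.16). iTBS library 5 overlapped the sham range and the other 4 iTBS libraries did not.

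Tiparp, a mono-ADP-ribosyltransferase known as a target of the aryl hydrocarbon receptor and of neuronal activity, measured 15.5, 15.9, 17.3, 18.9 and 24.1 CPM in iTBS and 24.8, 29.01, 26.1, 28.99 and 23.02 CPM in sham. iTBS libraries 1 to 4 were below every sham library, and iTBS library 5 was above sham library 5; the log2 fold change was -0.52 ± 0.12. Zfp189, a zinc finger factor, measured 7.60, 10.2, 8.86, 12.1 and 13.5 CPM in iTBS and 15.4, 15.6, 14.9, 17.7 and 13.8 CPM in sham and did not overlap (-0.56 ± 0.14). Klf10, the TGF-beta-inducible early gene, measured 38.97, 41.5, 36.8, 44.6 and 59.7 CPM in iTBS and 49.5, 58.7, 65.9, 81.4 and 71.3 CPM in sham (-0.56 ± 0.15), and in Stk40, a pseudokinase gene, the values were 27.3, 25.9, 26.8, 30.1 and 35.1 CPM in iTBS and 33.8, 32.9, 40.4, 40.5 and 39.6 CPM in sham (-0.37 ± 0.096). In both, iTBS library 5 was the iTBS value inside the sham range.

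The remaining lower genes were Rhou, an atypical small GTPase (-0.25 on the log2 scale, no overlap), Ccn4, a secreted matricellular protein (-0.59), Pdgfb, the platelet-derived growth factor B chain through which endothelium recruits pericytes (-0.34), Nop16, a nucleolar protein of ribosome assembly (-0.28, no overlap), and Sox8, a transcription factor of the oligodendrocyte lineage (-0.34). iTBS library 5 was the highest of the 5 iTBS libraries in 11 of the 12 lower genes, and in 69 of the 132 lower genes at an unadjusted p under 0.05 (52.3%), against 17.1% of all tested genes. Sham library 4 was the highest sham library in 9 of the 12 and in 48 of the 132 (36.4%), against 31.4% of all tested genes. iTBS library 5 held the highest iTBS value of Tiparp, Klf10 and Sgk1, so leaving it out was bound to make their differences larger. They were then -0.65 for Tiparp, -0.70 for Klf10 and -0.69 for Sgk1. In that edgeR fit the smallest adjusted p over all genes was 0.598.

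**Figure D3:**
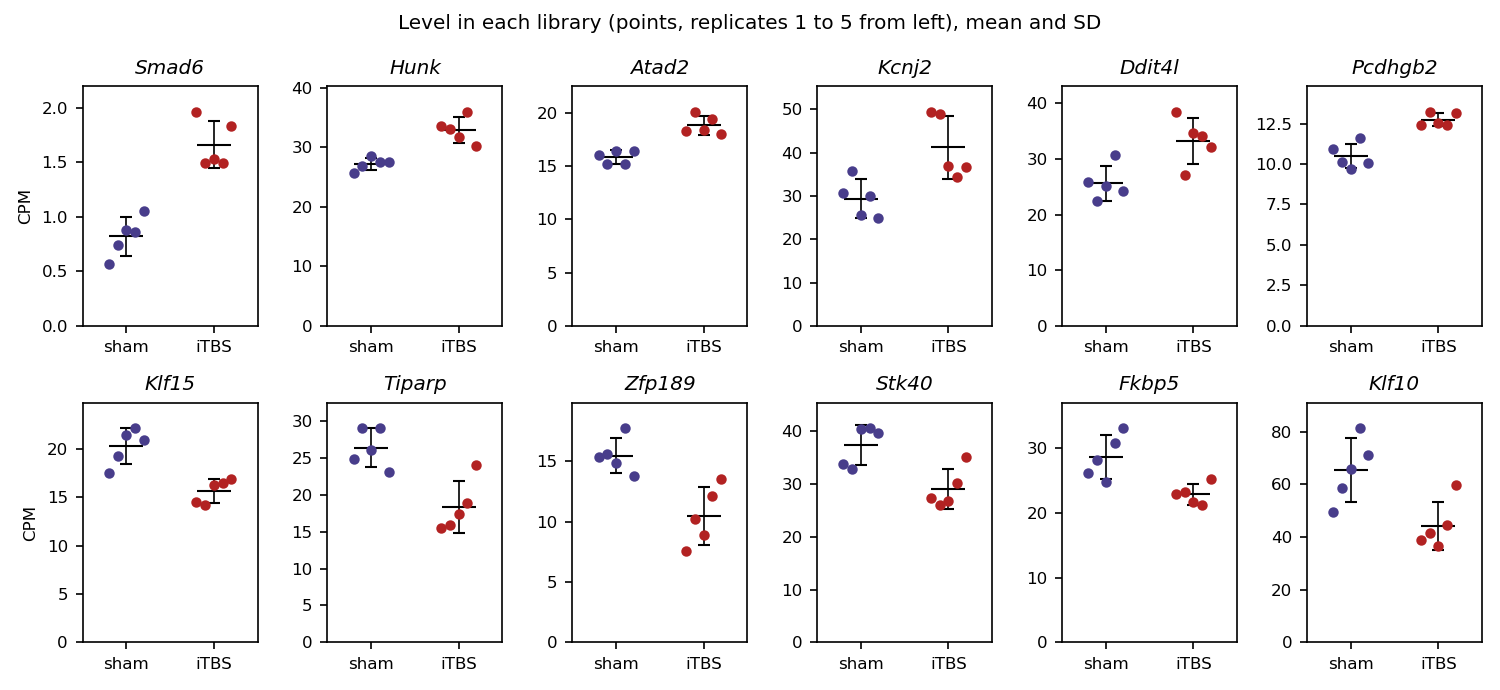
CPM (y axes, from 0) of the 6 higher (top) and 6 lower (bottom) named genes with the smallest p, with each library as a point (replicates 1 to 5 from left, sham in dark blue, iTBS in red) and the mean and SD of 5 libraries as bars. Smad6, Hunk, Atad2, Pcdhgb2, Klf15 and Zfp189 do not overlap between the groups; in Tiparp, Stk40, Fkbp5 and Klf10 the iTBS value inside the sham range is that of replicate 5.

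The lower genes Klf15, Fkbp5 and Sgk1 are textbook targets of the glucocorticoid receptor, and the list of glucocorticoid-induced genes was described as a whole. All 19 tested members of 20 had a lower value in iTBS, 8 at an unadjusted p under 0.05 (0.591% of all tested genes were lower at that threshold) and 0 after adjustment over all genes. Members of a list, here and below, were measured in the same libraries and can vary together. They are therefore not separate observations, and the shares over all genes are given for description only. The median log2 fold change was -0.22, against 0.0055 over all 22338 genes, of which 47.8% had a negative value. Klf15 and Arrdc2 did not overlap between the groups, against 0.134% of all tested genes with every iTBS library lower. The 8 include Klf15, Fkbp5 and Sgk1, which were picked for their small p in these same libraries and drew attention to the list. The others were Tsc22d3, Per1, Hif3a, Plin4 and Arrdc2. The twentieth gene, Mt2, had at most 8 counts in a library and was not tested.

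Tsc22d3, which encodes the anti-inflammatory leucine zipper protein GILZ, measured 53.2, 48.7, 59.1, 60.5 and 59.1 CPM in iTBS and 58.7, 68.9, 63.2, 80.3 and 65.8 CPM in sham (-0.27 ± 0.090). Per1, a clock gene that glucocorticoids also induce, measured 83.6, 119, 134, 124 and 168 CPM in iTBS and 157, 143, 194, 197 and 173 CPM in sham (-0.46 ± 0.16). In Per1 the lowest value was that of iTBS library 1 and the only iTBS value inside the sham range that of library 5. Hif3a, an inhibitory hypoxia-inducible factor subunit, differed by -0.53 ± 0.21, the lipid droplet gene Plin4 by -0.58 ± 0.26 and the arrestin-domain gene Arrdc2 by -0.33 ± 0.14.

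The intervals of the other 11 members included 0. Klf9, a Krüppel-like factor of neurons, differed by -0.12 ± 0.099 with an interval of -0.34 to 0.093, the metallothionein Mt1 by -0.17 ± 0.10 and the promyelocytic zinc finger gene Zbtb16 by -0.081 ± 0.16. The summed level of the list was 777 to 987 CPM in iTBS and 937 to 1216 CPM in sham libraries. iTBS library 5 lay above sham libraries 1 and 2, and the other 4 iTBS libraries lay below every sham library. The median over the list was -0.19 in a fit with the library number as a term, -0.23 with the nuclear RNA level, -0.19 with the striatal level and -0.21 without sham library 4. The immediate early genes, described below, also had their highest sum in iTBS library 5 and sham library 4 of the respective groups. Per1 and Errfi1 of the glucocorticoid-induced list are also members of the clock and MAP kinase feedback lists. Whether these lists vary together was not tested. The labels give no time of day, handling or hormone level for any animal.

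Promoter windows of the 3 named glucocorticoid-induced genes are shown because the 3 had lower values together. The windows come from RefSeq on mouse build GRCm38.p6, an earlier build than that of the counts, and run from 250 bases before to 50 bases after an annotated start. Of the 20 listed genes, 17 had a window, 27 windows in all. Capitals mark matches, on either strand, to the half-site of the glucocorticoid receptor (AGAACA), to the E-box that clock factors bind (CACGTG) and to the half-site of the cyclic AMP response element (TGACG). The Klf15 window lies at chr6:90462326-90462625 on the plus strand, the Fkbp5 window at chr17:28486100-28486399 on the minus strand, and the fifth of 6 Sgk1 windows at chr10:21993640-21993939 on the plus strand. That Sgk1 window was chosen because it holds the palindrome described below; of the other 5, windows 1, 2 and 4 held a single half-site each, and windows 3 and 6 held none of the letters searched.
Klf15: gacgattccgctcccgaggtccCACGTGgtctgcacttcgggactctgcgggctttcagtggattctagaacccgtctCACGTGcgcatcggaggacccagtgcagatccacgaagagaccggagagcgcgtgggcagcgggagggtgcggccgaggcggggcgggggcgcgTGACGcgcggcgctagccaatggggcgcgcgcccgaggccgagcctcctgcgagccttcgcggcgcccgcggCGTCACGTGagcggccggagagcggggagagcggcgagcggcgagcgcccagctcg
Fkbp5: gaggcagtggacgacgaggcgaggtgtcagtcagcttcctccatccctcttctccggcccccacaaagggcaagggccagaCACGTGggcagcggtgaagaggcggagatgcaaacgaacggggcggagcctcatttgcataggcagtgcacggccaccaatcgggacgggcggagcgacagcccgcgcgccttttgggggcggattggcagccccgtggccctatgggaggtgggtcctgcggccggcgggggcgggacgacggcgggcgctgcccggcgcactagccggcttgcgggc
Sgk1: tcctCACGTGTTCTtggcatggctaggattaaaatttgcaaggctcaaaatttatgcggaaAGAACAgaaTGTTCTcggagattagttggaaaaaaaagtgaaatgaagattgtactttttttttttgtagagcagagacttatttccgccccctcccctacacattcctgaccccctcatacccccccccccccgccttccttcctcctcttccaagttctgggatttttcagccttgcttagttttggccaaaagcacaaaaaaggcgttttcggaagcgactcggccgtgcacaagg

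The Klf15 window held 3 E-boxes, the last of them overlapping a cyclic AMP half-site, and a further cyclic AMP half-site. The Fkbp5 window held 1 E-box and none of the other letters searched. In the Sgk1 window, bases 62 to 76 formed the full palindrome of the glucocorticoid receptor, a pair of inverted half-sites 3 bases apart; another half-site at bases 9 to 14 overlapped an E-box. The palindrome occurred in 3 of the 32851 windows of the table (0.00913%), and the Sgk1 window was the only one of the list's 27. The half-site alone was in 5 of the 27 windows (18.5%), against 19% of all windows, the E-box in 4 (14.8%, against 7.15%) and the cyclic AMP half-site in 8 (29.6%, against 20.8%). These matches describe letters in a window and are not measured binding sites.

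Core clock genes (19 tested) had 13 negative and 6 positive values with a median of -0.033. The 2 members with an unadjusted p under 0.05 were both lower, Per1 and Ciart, a repressor of the CLOCK-BMAL1 pair. Ciart measured 8.35, 13.5, 8.10, 11.1 and 12.95 CPM in iTBS and 22.8, 12.7, 16.97, 17.2 and 11.5 CPM in sham (-0.58 ± 0.20), with overlap. The other 17 members ran from -0.31 (Bhlhe40) to 0.17 (Npas2). Of the genes for repressors, Nr1d1 differed by -0.19 ± 0.096, Per2 by -0.23 ± 0.15, Per3 by 0.023 ± 0.13, Cry1 by -0.014 ± 0.071 and Cry2 by -0.00090 ± 0.073. Of those for activators, Clock differed by 0.035 ± 0.066, Arntl by 0.039 ± 0.079, Npas2 by 0.17 ± 0.081 and Rora by -0.033 ± 0.11.

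Most immediate early genes measured at or below the sham level 3 h after iTBS. Of 26 tested, 21 had a negative and 5 a positive value, the median was -0.15, and 3 had an unadjusted p under 0.05, Npas4 and Btg2 higher and Trib1 lower. Of all tested genes 47.8% had a negative value, as had 54.7% of those at or above 10 CPM, and 0.815% were higher and 0.591% lower at that threshold. Fos, the AP-1 subunit used as a marker of recent activity, measured 20.9, 31.7, 46.8, 35.1 and 51.8 CPM in iTBS and 38.9, 30.9, 35.1, 47.0 and 36.04 CPM in sham. The groups overlapped over most of their range, and the log2 fold change was -0.021 ± 0.20 with an interval of -0.46 to 0.42. Arc, the plasticity gene whose protein drives AMPA receptor endocytosis, measured 195, 267, 397, 407 and 496 CPM in iTBS and 351, 354, 507, 613 and 438 CPM in sham (-0.36 ± 0.23, interval -0.87 to 0.14). Its lowest value was in iTBS library 1 and its highest in sham library 4.

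Npas4, a factor that responds to calcium entry and organises inhibitory synapses, measured 21.4, 37.7, 38.9, 34.5 and 39.1 CPM in iTBS and 29.2, 21.2, 29.8, 27.7 and 23.5 CPM in sham. The 4 iTBS libraries other than library 1 were above every sham library, and library 1 was below 4 of the 5 sham libraries; the log2 fold change was 0.38 ± 0.16 (interval 0.046 to 0.72). Btg2, an anti-proliferative gene, measured 17.02, 30.01, 22.6, 21.95 and 26.2 CPM in iTBS and 24.5, 13.8, 16.8, 15.3 and 13.7 CPM in sham (0.49 ± 0.18), and sham library 1 alone lay inside the iTBS range. Trib1, a pseudokinase gene, measured 22.5, 25.3, 30.5, 30.1 and 40.9 CPM in iTBS and 30.1, 31.5, 42.7, 51.6 and 42.3 CPM in sham (-0.41 ± 0.17). Egr1 differed by -0.055 ± 0.17, and Nr4a1, an orphan nuclear receptor, by -0.11 ± 0.22.

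iTBS library 1 was the lowest of the 5 iTBS libraries for Fos, Arc, Npas4 and Nr4a1, and iTBS library 5 the highest. The summed level of the immediate early genes was 1427 to 2424 CPM in iTBS and 1423 to 2565 CPM in sham. The libraries with the lowest numbers in the labels, iTBS 1 and 2, held 1427 and 1507 CPM, and those with the highest numbers, iTBS 5, sham 4 and sham 5, held 2424, 2565 and 2117 CPM. In a fit with that number as a term the median was -0.0093 in place of -0.15. The iTBS libraries carry the numbers 1, 3, 9, 10 and 11 and the sham libraries 4, 6, 7, 14 and 15, and the labels do not say what the number stands for.

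Late activity-response genes (24 tested, 9 positive and 15 negative, median -0.035) held 1 higher and 4 lower members at an unadjusted p under 0.05, against 0.815% and 0.591% of all tested genes. Inhba, the activin subunit that neuronal activity induces, was the higher one, at 28.9, 25.3, 25.4, 26.1 and 25.6 CPM in iTBS and 21.7, 21.1, 21.6, 21.98 and 27.6 CPM in sham (0.20 ± 0.082). Sham library 5 alone lay inside the iTBS range. The lower ones were Tiparp, the plasminogen activator Plat (-0.21 ± 0.069), the polo-like kinase gene Plk3 (-0.29 ± 0.11) and Gpr3, a receptor that raises cyclic AMP (-0.40 ± 0.18). Bdnf, the neurotrophin most tied to stimulation-induced plasticity, measured 34.01, 26.5, 31.6, 31.2 and 37.1 CPM in iTBS and 28.6, 26.2, 29.1, 41.9 and 38.2 CPM in sham (-0.034 ± 0.13, interval -0.32 to 0.25), and Homer1, a scaffold gene with an activity-induced short form that gene counts do not separate, differed by 0.044 ± 0.11. In a fit with the library number as a term the median of this list was 0.059.

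Feedback inhibitors of the MAP kinase pathway (17 tested, 6 positive and 11 negative, median -0.052) held 1 member with an unadjusted p under 0.05. This was Dusp5, a nuclear ERK phosphatase, at 8.16, 8.45, 12.1, 11.8 and 17.7 CPM in iTBS and 15.2, 11.8, 15.4, 23.9 and 16.9 CPM in sham (-0.52 ± 0.22), with iTBS libraries 1 and 2 the lowest of the 10. Dusp4 (-0.47 ± 0.22) and Spry4 (-0.32 ± 0.16) had values of the same sign. The neurotrophin signalling genes (18 tested, 8 positive and 10 negative) had a median of -0.0084 and no member at that threshold.

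Genes of the BMP and TGF-beta feedback loop had no common direction. Of 21 tested, 7 had a positive and 14 a negative value, with a median of -0.071. Smad6 and Klf11 were higher without overlap, Klf10 was lower, and the other inhibitory SMAD, Smad7, measured 34.3 ± 2.84 CPM in iTBS and 36.1 ± 3.23 CPM in sham libraries (mean ± SD, n = 5 each; -0.075 ± 0.079 on the log2 scale). The Id genes, which BMP receptors induce through SMAD1 and SMAD5, had differences close to 0, Id1 at -0.032 ± 0.16, Id2 at 0.017 ± 0.10 and Id3 at 0.035 ± 0.13. Atoh8, another BMP target, differed by -0.57 ± 0.26. Among 30 ligands, receptors and signalling SMADs (15 positive and 15 negative, median 0.0019), the endothelial co-receptor Eng was higher (15.8, 14.6, 16.8, 16.6 and 18.2 CPM in iTBS and 14.02, 12.03, 14.5, 14.6 and 14.8 CPM in sham; 0.23 ± 0.083) and Smad1 lower (31.4, 28.04, 26.7, 27.4 and 31.1 CPM in iTBS and 29.4, 32.2, 34.4, 35.9 and 32.9 CPM in sham; -0.19 ± 0.072) at an unadjusted p under 0.05, both with overlap.

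Glutamate receptor genes lay within narrow intervals around the sham level. All 19 AMPA receptor subunit and auxiliary genes had intervals inside a 2-fold change and 18 of them inside 1.5-fold, and none had an unadjusted p under 0.05 (median 0.012). Gria1, the subunit inserted during potentiation, measured 388, 394, 345, 353 and 425 CPM in iTBS and 381, 416, 325, 392 and 385 CPM in sham (0.0039 ± 0.085, interval -0.18 to 0.19). Grin1, the obligatory NMDA receptor subunit, measured 390, 362, 408, 376 and 401 CPM in iTBS and 334, 258, 379, 425 and 415 CPM in sham (0.098 ± 0.12, interval -0.16 to 0.36). Of the 9 NMDA receptor genes 7 lay inside 1.5-fold. Grin2a (0.12 ± 0.093, interval -0.080 to 0.32) and Grin2b (0.11 ± 0.12, interval -0.16 to 0.38) had positive values with intervals that included 0. The 10 metabotropic glutamate receptor genes all lay inside 1.5-fold, at a median of 0.018.

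Inhibitory transmission genes gave the same picture. Of 16 GABA-A receptor genes 15 had intervals inside 1.5-fold, at a median of 0.036, as had all 13 genes of GABA synthesis, transport and GABA-B receptors (median 0.027) and all 11 chloride transport genes (median 0.036). Gad1, the main GABA-synthesising enzyme, measured 335, 365, 316, 288 and 364 CPM in iTBS and 313, 350.4, 280.3, 364 and 309 CPM in sham (0.046 ± 0.092, interval -0.15 to 0.25). None of these 40 genes had an unadjusted p under 0.05. Interneuron class markers (21 tested) had 1 such member, Calb2, at 4.88, 4.87, 4.14, 4.45 and 6.62 CPM in iTBS and 5.999, 25.9, 4.41, 7.90 and 8.19 CPM in sham. The high value is that of sham library 2, the library high in thalamic genes, a list that also holds Calb2.

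Postsynaptic scaffold genes had small differences of nearly uniform sign. Of 20, 19 had a positive value (52.2% of all tested genes and 45.3% of those at or above 10 CPM did), the median was 0.045, and none had an unadjusted p under 0.05. All 20 intervals lay inside 1.5-fold. Shank3, a scaffold of the deep postsynaptic density, measured 417, 284, 368, 372 and 344 CPM in iTBS and 299, 279, 323, 389 and 325 CPM in sham (0.14 ± 0.11), a difference within the spread of either group, and Dlg4, which encodes PSD-95, differed by 0.030 ± 0.094. Vesicle release genes (28 tested, 15 positive and 13 negative) had a median of 0.0046. Of the 23 actin and spine genes 19 had a negative value, at a median of -0.029 and with every interval inside 1.5-fold. Calcium/calmodulin kinase and calcineurin genes (22 tested) held 1 member with an unadjusted p under 0.05, the lower Camk2d (-0.22 ± 0.098), while Camk2a, the abundant forebrain subunit, differed by 0.033 ± 0.12.

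Ion channel genes had mostly positive values of small size. Of 32 potassium channel genes 23 had a positive value (median 0.045) and only Kcnj2 had an unadjusted p under 0.05. The astrocytic inward rectifier Kcnj10, of the same family, measured 222, 141, 184, 182 and 176 CPM in iTBS and 148, 206, 163, 188 and 162 CPM in sham (0.061 ± 0.12). Of 22 sodium and calcium channel genes 18 were positive (median 0.038), with Cacna1i, a low-threshold T-type calcium channel, at 242, 216, 279.7, 239.6 and 251 CPM in iTBS and 210.1, 178, 189.8, 239 and 235 CPM in sham (0.22 ± 0.097). Among serotonin and acetylcholine receptor genes (21 tested, 12 positive and 9 negative), Htr1a, the inhibitory serotonin receptor, measured 20.5, 15.02, 13.2, 14.5 and 14.03 CPM in iTBS and 10.9, 11.6, 11.5, 14.7 and 13.2 CPM in sham (0.32 ± 0.13), and Chrna7, the alpha7 nicotinic receptor, measured 17.6, 17.7, 17.8, 16.1 and 16.4 CPM in iTBS and 15.4, 15.6, 14.7, 15.8 and 15.95 CPM in sham (0.14 ± 0.063). Chrna7 did not overlap, by a margin of less than 1 CPM.

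Among synaptic adhesion genes (28 tested, 16 positive and 12 negative, median 0.0089), Adgrl2, a latrophilin, and Flrt2, which encodes a ligand of latrophilins, were the 2 with an unadjusted p under 0.05. Adgrl2 measured 177, 164, 162, 165 and 166 CPM in iTBS and 156, 148, 152, 158 and 149 CPM in sham, without overlap (0.13 ± 0.054). Flrt2 measured 181, 151, 153, 163 and 169.5 CPM in iTBS and 149, 129.8, 137, 157 and 140.2 CPM in sham (0.20 ± 0.073), with overlap. Of 11 non-clustered protocadherins Pcdh20 alone passed that threshold, at 34.8, 29.2, 27.8, 29.01 and 26.2 CPM in iTBS and 24.2, 25.9, 24.03, 26.7 and 26.1 CPM in sham (0.21 ± 0.078).

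Vessel genes had mostly positive values of small size. Of 19 endothelial and mural genes 16 had a positive value, 5 of them at an unadjusted p under 0.05 (Pdgfrb, Kdr, Abcc9, Notch3 and Cldn5), and the median was 0.10. Over all tested genes 52.2% had a positive value, and 0.815% were higher at that threshold. Kdr, the VEGF receptor of endothelium, measured 11.1, 10.3, 10.1, 10.1 and 11.1 CPM in iTBS and 8.27, 8.94, 10.01, 8.71 and 8.12 CPM in sham, without overlap (0.26 ± 0.086). Pdgfrb, the pericyte receptor for the product of Pdgfb, measured 25.3, 24.6, 22.8, 25.3 and 24.01 CPM in iTBS and 23.5, 19.4, 21.9, 19.4 and 19.5 CPM in sham (0.24 ± 0.072), while Pdgfb itself was among the 12 lower genes. Cldn5, the tight junction claudin of brain endothelium, measured 18.9, 12.9, 13.8, 13.2 and 12.5 CPM in iTBS and 10.8, 8.86, 12.7, 13.6 and 11.7 CPM in sham (0.31 ± 0.14). The summed level of the list was 343 to 380.1 CPM in iTBS and 317 to 353 CPM in sham, with overlap.

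All 15 meningeal fibroblast genes had a positive value, 3 of them (Col1a1, Col1a2 and Col3a1) at an unadjusted p under 0.05 (52.2% of all tested genes were positive, and 0.815% were higher at that threshold), and the median was 0.17. Col1a1 measured 26.4, 26.6, 91.1, 21.9 and 50.9 CPM in iTBS and 29.2, 14.3, 18.7, 33.3 and 14.7 CPM in sham (0.95 ± 0.39). iTBS library 3 held the highest value, and the iTBS libraries 1, 2 and 4 lay inside the sham range. Col3a1 measured 5.86, 5.47, 4.27, 5.35 and 6.003 CPM in iTBS and 3.66, 4.18, 3.63, 4.56 and 2.86 CPM in sham (0.51 ± 0.15). Ptgds, a prostaglandin synthase abundant in the leptomeninges, differed by 0.014 ± 0.13, and the summed level was 534 to 604 CPM in iTBS and 453 to 666 CPM in sham, where sham library 4 was the highest of the 10. The part of the amount of meninges in each tissue piece was not tested.

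Glial genes lay near the sham level. Microglia markers (16 tested, 6 positive) had a median of -0.026, astrocyte markers (16, 4 positive) -0.036 and oligodendrocyte markers (18, 6 positive) -0.036, with no member of the 3 lists at an unadjusted p under 0.05 and 48 of the 50 intervals inside 1.5-fold. Among precursor genes Olig2 measured 18.3, 16.96, 16.3, 14.7 and 16.9 CPM in iTBS and 15.4, 13.98, 13.4, 15.1 and 15.3 CPM in sham (0.18 ± 0.077), with overlap. Of 22 inflammation and interferon genes only 14 had enough counts to be tested, and Il1b, Il6, Tnf and Ccl2 had at most 10, 2, 9 and 8 counts in any library. The 14 had a median of -0.022 and no member at that threshold.

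Of the 4 lists that mark neighbouring regions, 3 had large medians that depended on the libraries that stood apart. The choroid plexus and ependyma list (14 tested, 13 negative) had a median of -1.04, and 0.31 without sham libraries 2 and 5. The thalamic list (12 tested, all negative) had a median of -0.48, and -0.029 without sham library 2. The striatal list (17 tested, all positive) had a median of 0.25, and -0.093 without iTBS library 2. The hippocampal list (10 tested, 5 positive and 5 negative) had a median of 0.023. Layer markers of the cortex itself were closer to the sham level, at a median of 0.032 for layers 2 to 4, -0.026 for layer 5 and -0.030 for layer 6 and subplate (14 tested in each).

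Housekeeping lists had small values of common sign. Of 53 cytosolic ribosomal protein genes 52 were negative (median -0.078), of 24 proteasome genes 23 (median -0.067), of 34 nuclear respiratory chain genes 30 (median -0.040) and of 23 glycolysis and lactate genes 20 (median -0.045). None of these 134 genes had an unadjusted p under 0.05, and every ribosomal, proteasome and glycolysis interval lay inside 1.5-fold. For comparison, 54.7% of all tested genes at or above 10 CPM had a negative value, with a median of -0.0069. Cholesterol synthesis genes (24 tested, 21 negative, median -0.076) held 2 members at an unadjusted p under 0.05, the mevalonate pathway enzymes Mvd, at 12.3, 10.9, 10.6, 11.3 and 12.2 CPM in iTBS and 13.2, 12.9, 14.1, 14.2 and 12.7 CPM in sham without overlap (-0.22 ± 0.076), and Pmvk, at 13.7, 12.3, 13.6, 14.3 and 14.7 CPM in iTBS and 13.7, 17.5, 16.5, 17.97 and 15.4 CPM in sham (-0.24 ± 0.088). The summed ribosomal level was 3460 to 4834 CPM in iTBS and 3876 to 4942 CPM in sham, with iTBS library 2 the lowest and sham library 4 the highest. Ribosomal protein genes have many near-identical pseudogene copies, and how reads were shared among them is unknown here.

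**Figure D4:**
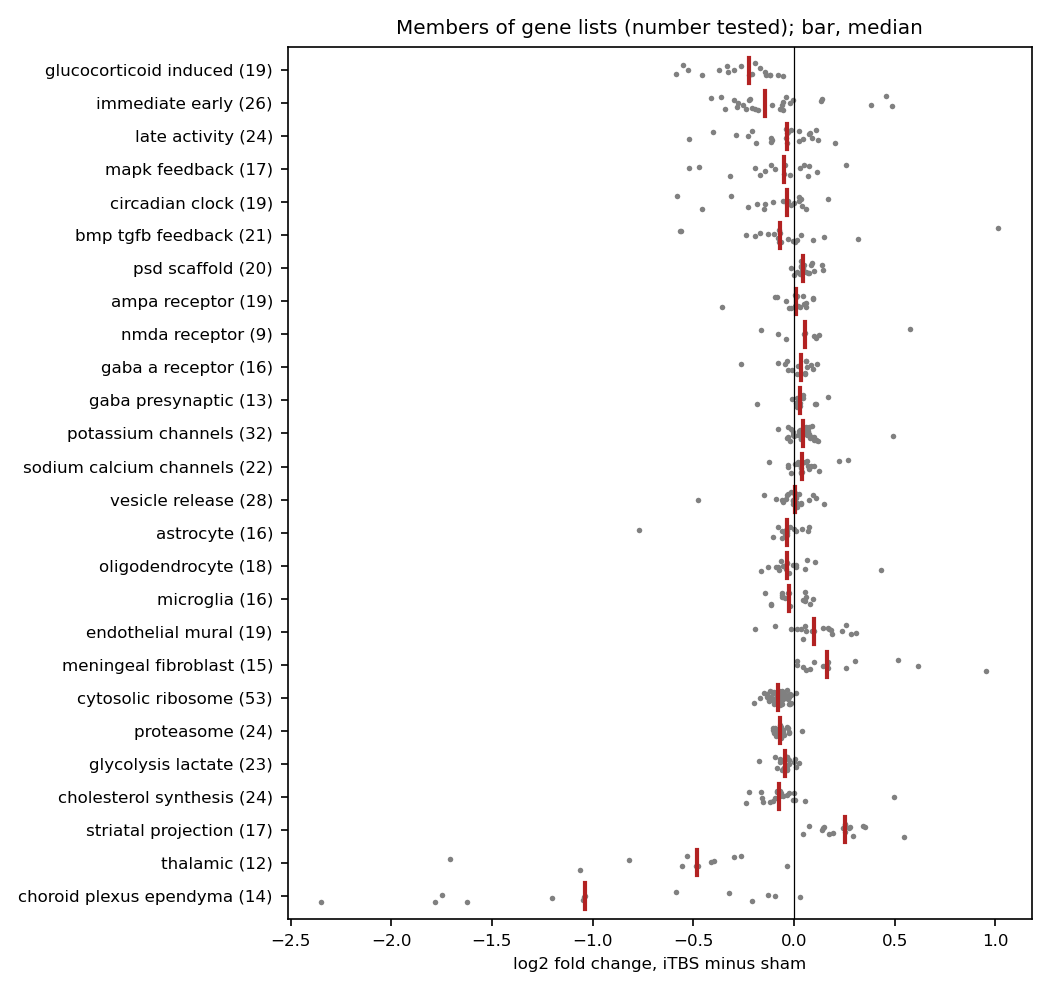
Log2 fold change (iTBS minus sham, x axis) of each tested member of 26 gene lists, with the list's median as a red bar and the number of members in parentheses. Synaptic, channel, ribosomal and proteasome genes cluster close to 0, the 19 glucocorticoid-induced genes all lie below 0, and the thalamic and choroid plexus lists have the widest spread.

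The medians of the lists differed in how far they depended on a single library. For the glucocorticoid-induced list, 23 other settings, 10 of which left out 1 library each, gave medians of -0.30 to -0.17. The range was -0.27 to -0.0093 for immediate early genes, -0.077 to 0.059 for late activity-response genes, 0.068 to 0.14 for vessel genes, 0.078 to 0.22 for meningeal genes and 0.011 to 0.088 for postsynaptic scaffold genes. The choroid plexus list ran from -1.29 to 0.31 and the striatal list from -0.093 to 0.58. All settings use the same 10 animals or a subset of them (1 setting adds 5 libraries to the estimate of spread), so these ranges say nothing of other animals.

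**Figure D5:**
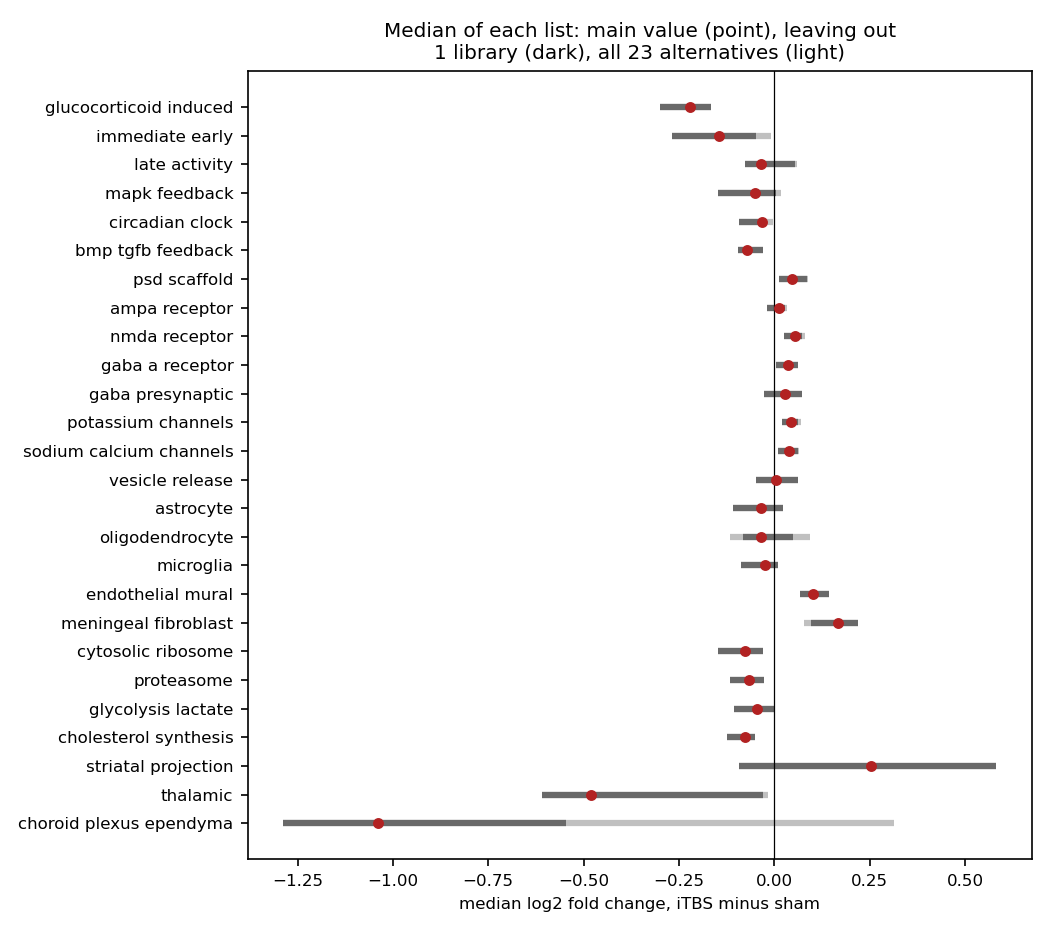
Median log2 fold change (iTBS minus sham, x axis) of 26 gene lists under the main analysis (red point), when 1 of the 10 libraries is left out (dark bar) and over all 23 alternative settings (light bar). The glucocorticoid-induced bar covers -0.30 to -0.17, while the striatal and choroid plexus bars cross 0.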

How the data were processed

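Gene counts of 15 cortex libraries were deposited by the authors as raw, unnormalized counts, 1 row per Ensembl gene; per the labels' protocols, RNA came from an RNeasy kit and libraries from a stranded kit for total RNA with ribosomal RNA removal. The authors also deposited variance-stabilized values, close to log2 in scale, used only in 1 alternative. Per the submitters' processing notes, fastp, STAR, DESeq2 and the build GRCm39 (mm39) were used; counter, annotation and strand setting are unknown here, so overlapping and antisense genes are uncertain.

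From the raw counts of the 10 iTBS and sham libraries, edgeR 4.0.16 (R 4.3.3) was fitted with a term per group, TMM scaling, its default expression filter by group, and the quasi-likelihood F test; p-values were adjusted over all 22338 tested genes by the Benjamini-Hochberg method at 0.05. The tested genes held 99.86% of the counts. Each standard error (SE) was computed as the absolute log2 fold change over the root of F, and intervals are at the 95% level. CPM uses TMM-scaled library sizes, and a summed level adds the CPM of all genes of a list, tested or not. A difference on the log2 scale is always iTBS minus sham. Symbols came by identifier from a table of an earlier annotation (52073 of 56748 identifiers, 97.6% of counts), and all 1034 symbols of 54 gene lists matched, 1004 of them tested. The named genes are the 12 higher and 12 lower with the smallest p at a mean of at least 1 CPM, the 2 or 3 smallest-p members of each list described, and Fos, Arc, Egr1, Npas4, Nr4a1, Bdnf, Homer1, Gria1, Grin1, Gad1 and Camk2a; 1 gene that the rule names among the higher ones is not reported here; other genes named with values were chosen for their role after their values were seen. The comparison, its members and the lists were chosen with earlier results of these data known, so lists are described by counts and medians without a test. Each group is 5 animals per the series' design text, so p-values rest on the spread between animals together with that of dissection and library preparation. Total counts ran from 15385070 to 47807723. Alternatives (scaling, filter, DESeq2 1.42.0, limma 3.58.1, covariates, a replicate block and left-out libraries) are given in the closing section. The fit was also tried on counts simulated from the means and spread of these libraries, with known changes added.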

Additional observations from a re-analysis of the deposited data

Results flagged for a closer look

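In 39 measures, each checked in both groups (78 checks), 1 single library lay far from the other 4 of its group by Dixon's criterion, which chance alone meets in about 5% of groups. Npas4 was 21.36 CPM in iTBS library 1, the lowest of its group, and the nearest iTBS value was 34.52 CPM (a gap of 0.793 of the group's range).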

How the results depend on the processing

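The count of genes with an adjusted p under 0.05 was 0 under each of 23 alternatives, and the smallest adjusted p was 1.00 in all but 2 of them (0.598 without iTBS library 5, 0.807 with the nuclear RNA level as a term). The count at an unadjusted p under 0.05, 314 in the main analysis, was 894 with no filter on low counts (44053 genes tested), 593 with limma-voom and library quality weights, 906 with the nuclear RNA level as a term, 480 with the striatal level as a term and 205 without sham libraries 2 and 5. Leaving out 1 library gave 232 (without iTBS library 4) to 518 (without sham library 4, whose quality weight was 0.24). The cause of these shifts was not tested. The split of higher against lower genes at that threshold was 182 to 132 in the main analysis and 241 to 130 with upper-quartile scaling (22338 genes tested in each). It was 147 to 146 at a mean of at least 1 CPM (17307 genes tested) and 188 to 189 with DESeq2 (44029 genes tested). With CPM from total counts alone, 49 genes lay wholly above and 44 wholly below sham, in place of 60 and 30.

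With the replicate number as a paired replicate block, 0 genes passed and 222 had an unadjusted p under 0.05. The labels do not say that a number marks a shared litter or day. Deviations of same-numbered libraries correlated at -0.571, 0.334, 0.383, -0.562 and 0.019. Those of differently numbered libraries correlated at -0.582 (iTBS 2 and sham 4) to 0.723 (iTBS 1 and sham 4). Whether the numbers pair the animals was not tested.

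Of 202 genes followed through the 23 alternatives, 174 kept the sign of their difference and 28 did not, among them Fos, Egr1, Nr4a1, Bdnf, Homer1, Gria1, Grin1, Gad1 and Camk2a. None of the 24 smallest-p genes changed sign. These 24 were picked for their small p in the same libraries, so their kept sign follows from that choice and is not a test of them. No gene was called in any alternative. With 5 animals a group, 97.4% of genes at or above 10 CPM had intervals inside 1.5-fold, and 59.7% of all tested genes had.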

Other observations

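Axon guidance genes of the semaphorin, ephrin and slit families (35 tested, 22 positive and 13 negative) had a median log2 fold change of 0.028, perineuronal net genes (16 tested, 6 positive) -0.025, and heat shock and endoplasmic reticulum chaperones (28 tested, 8 positive) -0.025; none of their members had an unadjusted p under 0.05 in edgeR. The 31 splicing factor genes tested had a median of -0.013 and the 13 mitochondrially encoded respiratory chain genes 0.011, again with no member at that threshold.

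Mt2, a metallothionein gene that sits beside Mt1 and is usually expressed with it, had 0 to 8 counts per library, while Mt1 measured 60.1 to 87.8 CPM in iTBS and 80.2 to 102.5 CPM in sham. Rpl24 had 5 to 16 counts per library, and the haemoglobin genes Hba-a1, Hba-a2, Hbb-bs and Hbb-bt at most 10, 11, 20 and 4. These values come from the deposited count table, and how reads that match several genes were counted is unknown here. On the first principal component of log2 CPM (57% of the variance) sham library 4 lay at -114.09 and iTBS library 1 at -59.87, and both groups had libraries on either side of 0. Sham library 4 was also the deepest and the one with the least nuclear-retained RNA.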
